A study of Rattus norvegicus with 18 samples.

Results

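22 genes of the 22081 in the deposited tables had a lower lung RNA level after MWCNT exposure at Year 2 by the rule given here, while they stayed within narrow limits at Years 0.5 and 1. For each time point, a difference d was calculated as the mean log2(CPM + 1) of the 3 MWCNT-treated rats minus that of the 3 control rats, where CPM is the deposited number of reads scaled for library size and adjusted by the TMM method. A gene was kept when d was at most -1 at Year 2, d lay within ±0.5 at Year 0.5 and at Year 1, and the mean CPM of the control rats at Year 2 was at least 2. The 18 animals were male F344 rats, 3 in each of 6 groups, and the treated rats had received MWNT-7, a multiwalled carbon nanotube, at 0.5 mg/kg by intratracheal instillation every 4 weeks from 9 weeks of age. Control rats had received the vehicle, saline with Tween 80, on the same schedule, and separate rats were sampled at Years 0.5, 1, and 2, so that age rises with time in both groups. RNA came from accessory lobe tissue without a visible tumour, and each library is therefore a mixture of all lung cell types.

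The 22 members form no single pathway. 8 members encode proteins used by T cells and natural killer (NK) cells, and *RT1-N3* encodes an MHC class I molecule, a kind of molecule that such cells recognise. Of these 9, *Cd6*, *Sh2d1a*, *Cd226*, and *Ly49s5* are in the marker lists of T cells and of cytotoxic and NK cells. NK cells weigh signals from activating receptors such as CD226 against signals from receptors that recognise MHC class I molecules. In the rat and the mouse that second role falls in part to the Ly49 lectin-like receptors, which occur in activating and inhibitory forms. T cells read peptides on MHC molecules, and co-receptors, adaptors, and phosphatases below the T cell receptor set how strongly the cell responds. In lung RNA a lower level of such a gene can reflect fewer cells of a type or less RNA per cell, and these cannot be told apart here. The other 13 members are ligands and receptors of other kinds, genes best known from neurons, and single genes such as the keratin *Krt76* and the transcription factor *Gata4*. This sorting by known role was made after the values had been seen.

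Depth was similar between the groups. Total counts ranged from 13297643 to 17868851 in control rats and from 14661589 to 21130757 in MWCNT-treated rats. The lung libraries held the markers of lung tissue at high levels. The summed CPM of 10 alveolar type 2 markers was 18293 to 20864 in control rats and 39494 to 44296 in MWCNT-treated rats at Year 2, and that of 15 macrophage markers was 1511 to 1719.5 and 10420.4 to 12468. Their part in the values of the members was not tested. 1 library stood apart in a way that bears on the members. The second control rat of Year 2 had a summed CPM of 924 over 26 cytotoxic and NK cell genes, where the other 17 rats had 176 to 690.0, and values without it are given below.

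The plot of d by time point shows what the rule selected. At Year 2 the median d of the members was -1.19, with a range from -1.80 for *LOC100911572* to -1.002 for *Adrb1*, while the median over the 13094 genes that met the CPM minimum was -0.02. At Year 0.5 the median was -0.28 and at Year 1 it was -0.33, and d was below 0 in 21 of 22 members at each of these time points. The exceptions were *Rfxapl1* at Year 0.5, with a d of 0.43, and *Atcay* at Year 1, with a d of 0.00. The members are thus genes whose difference was small but mostly of the same sign before Year 2. All of these values were used by the rule and are given as a description.

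**Figure D1:**
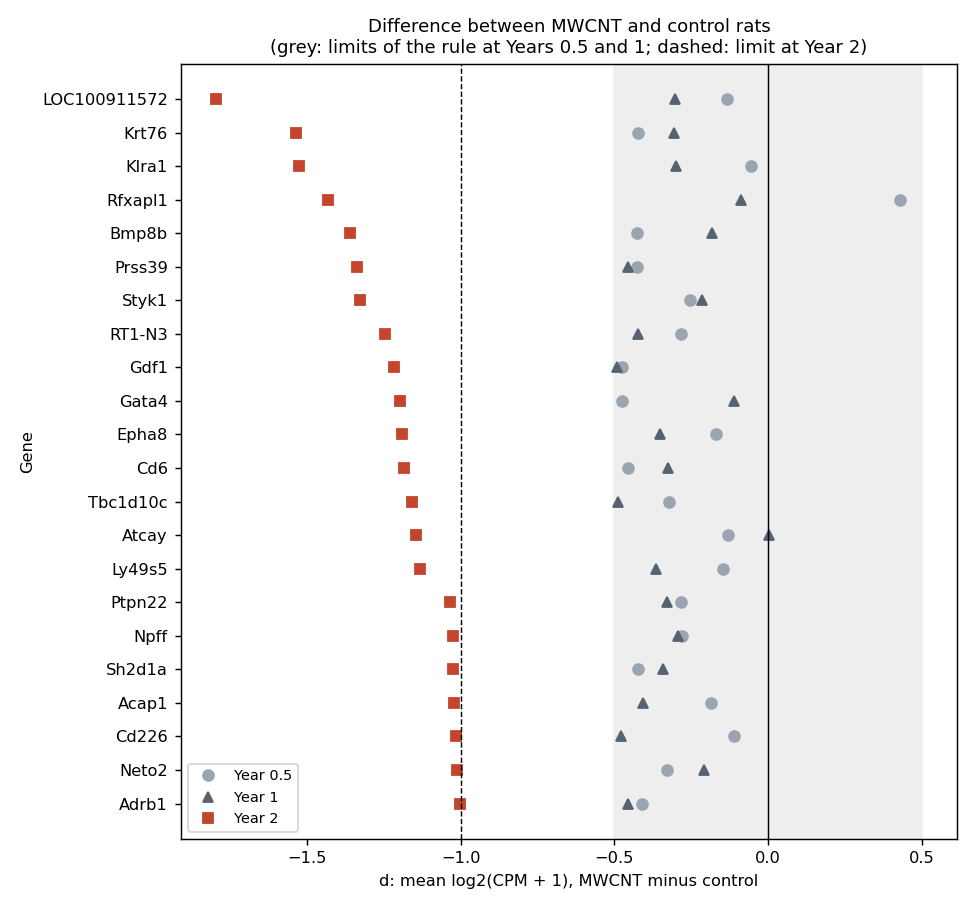
Difference d between MWCNT-treated and control rats (x axis, mean log2(CPM + 1), 3 rats in each group) for each of the 22 members (y axis) at Years 0.5, 1, and 2. Year 2 values run from -1.80 to -1.002, and the values of the earlier years lie inside the grey limits of ±0.5, with 21 of 22 below 0 in each year.

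In the edgeR quasi-likelihood test of the 6 rats of Year 2, 19 of the 22 members were lower with a false discovery rate (FDR) below 0.05 and a log2 fold change below -1, against 8.22% of the 14361 genes tested. *Gdf1*, *Rfxapl1*, and *Sh2d1a* did not pass. All 3 MWCNT-treated rats lay below all 3 control rats in the same 19 members at Year 2, against 30.7% of the genes that met the CPM minimum. At Year 0.5 the groups did not overlap in 7 members (26.4% of genes), and at Year 1 in 8 members (27.6% of genes). No member passed both limits at Year 0.5 or Year 1 in edgeR, where 3.03% and 4.09% of the tested genes did. With the FDR alone, *Adrb1*, *Cd6*, *Krt76*, and *Tbc1d10c* were already lower at Year 0.5 (18.6% of genes), and *Acap1*, *RT1-N3*, and *Tbc1d10c* at Year 1 (19.6% of genes). At an unadjusted p under 0.05, 6 of 20 members tested at Year 0.5 and 7 of 21 at Year 1 differed, against 47.8% and 50.2% of all genes. The rule used these contrasts, and nothing is read from the counts.

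A gene that passes at Year 2 and not before is not thereby shown to respond differently at Year 2. In one edgeR model of all 18 rats, the difference between treatments was larger at Year 2 than at Year 0.5 in 2 of 22 members at an FDR below 0.05, against 0.451% of the 14843 genes tested, and larger at Year 2 than at Year 1 in 2 of 22, against 0.162%. The members were *Krt76* and *RT1-N3* in both cases. The rule chose the members for such a difference, so that these calls are a description and nothing is read from the shares. The interaction estimate was below 0 in 22 of 22 members for either pair of years, as the rule largely fixes, with medians of -1.04 and -1.05 on the log2 scale. A further 5 members had an FDR between 0.05 and 0.1 against Year 0.5, namely *Epha8*, *Tbc1d10c*, *Ptpn22*, *Acap1*, and *Cd226*. Against Year 1 there were 4, namely *Bmp8b*, *Styk1*, *Cd6*, and *Ptpn22*, so that only *Ptpn22* was in both sets. The share of all genes in that range was not computed, and nothing is read from these counts. When each of the 18 rats was left out in turn, *RT1-N3* stayed under an FDR of 0.05 in 18 of 18 fits against Year 0.5 but in 7 of 18 against Year 1, and *Krt76* did so in 12 and 10 of 18, with an FDR of at most 0.117 in any of these fits. For the other 20 members, a difference between the time points was not shown by this test, and for *Krt76* and *RT1-N3* it is a description. With DESeq2 the 2 counts were 7 and 4. The share of all genes called by DESeq2 was not computed, the shares above are those of edgeR, and nothing is read from the DESeq2 counts.

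The pseudocount of 1 bears on what counts as a small difference. 11 of the 22 members had a mean CPM below 5 in control rats at Year 2, and for such genes log2(CPM + 1) understates a change. In the edgeR fits, which add no such constant, 7 of the 20 members tested at Year 0.5 had a log2 fold change below -0.5, as did 6 of the 21 tested at Year 1, and 11 members did so in at least 1 of the 2 years. With a pseudocount of 0.1 the rule kept 28 genes, of which 11 were among the 22.

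The Year 2 values described here are those the rule used, and requiring a low d and a minimum control CPM at Year 2 favours genes with high controls and low treated rats in that year, so that the direction of these changes is partly fixed by the choice. From Year 0.5 to Year 2, mean log2(CPM + 1) went up in control rats in 19 of the 22 members, with a median difference of 0.58, and went down in MWCNT-treated rats in 18 members, with a median of -0.35. In 15 members the control level was higher and the treated level lower at Year 2 than at Year 0.5. The levels of *Krt76*, *Gdf1*, and *Adrb1* were lower in both groups, and those of *Klra1*, *Atcay*, *Ly49s5*, and *Sh2d1a* were higher in both. The difference in control rats was the larger of the 2 in 11 members, and that in treated rats in the other 11. Over all genes that met the CPM minimum, the same medians were 0.00 and 0.00, and nothing is read from that difference.

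In edgeR, with an FDR under 0.05 and a log2 fold change beyond ±1, *Atcay*, *Klra1*, *Ly49s5*, and *Styk1* were higher in control rats at Year 2 than at Year 0.5, against 0.451% of genes, and *Epha8* and *Krt76* were lower in treated rats, against 0.903%. These contrasts share the rats of Year 2 with the rule, and the first 4 genes, whose mean CPM was below 1 in the control rats of Year 0.5, met the minimum CPM of 2 only at Year 2, so that nothing is read from the shares. The comparison of Year 1 with Year 0.5 within a treatment was not used by the rule. In that comparison 0 of 22 members passed in control rats and 0 of 22 in MWCNT-treated rats by edgeR, with backgrounds of 0.00% in control rats and 0.0472% higher and 0.00% lower in treated rats. At an unadjusted p under 0.05 there was 1 member in each, against 7.01% of genes in control rats and 9.24% in treated rats, and DESeq2 also called 0 in each. The median log2 fold change from Year 0.5 to Year 1 was 0.09 in control rats and 0.06 in treated rats.

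**Figure D2:**
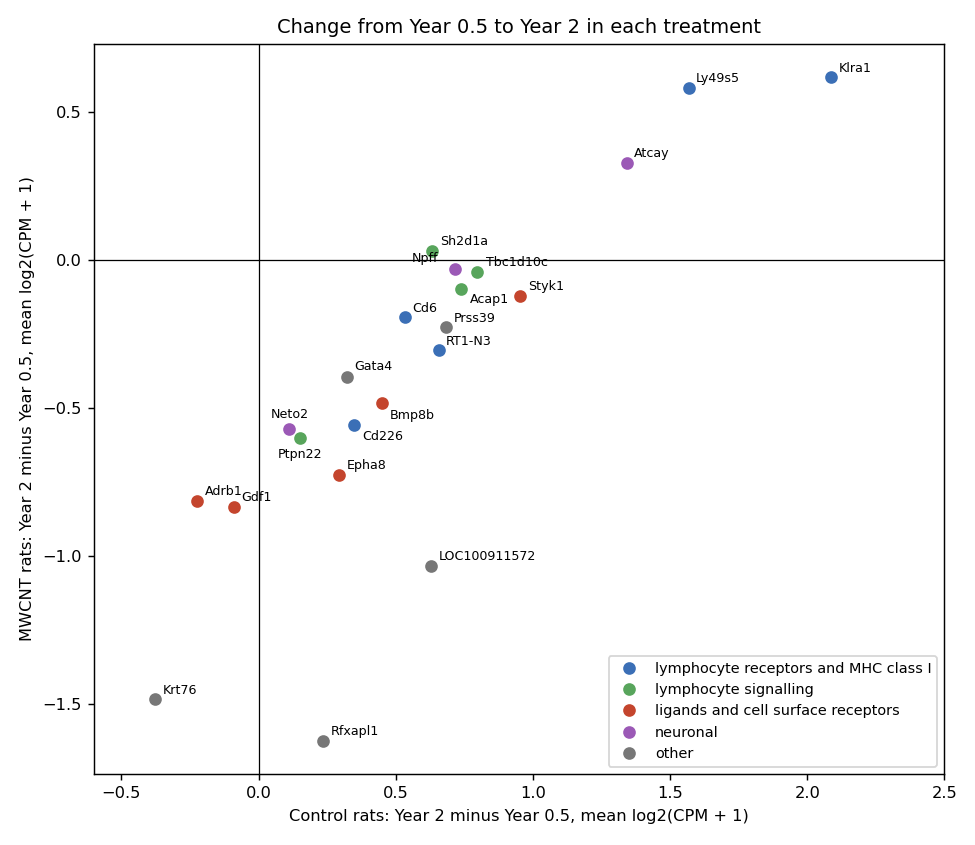
Change of mean log2(CPM + 1) from Year 0.5 to Year 2 in control rats (x axis) and in MWCNT-treated rats (y axis), with 1 point for each of the 22 members and colours for known role. Most points, 15 of 22, lie to the lower right, where the control level was higher and the treated level lower at Year 2, and 4 lie to the upper right.

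Among receptors of NK cells, *Klra1* (chr4:165005725-165026414, coordinates of Rnor_6.0) encodes a Ly49 receptor. Its CPM was 0.349, 0.493, and 0.130 in the control rats of Year 0.5 and 0.134, 0.347, and 0.325 in the treated rats, a level near that of no expression. At Year 2 it was 1.80, 10.1, and 4.64 in control rats and 1.41, 0.625, and 0.875 in treated rats, from 26, 157, and 66 and 19, 10, and 13 counts. The groups did not overlap at Year 2, but the 3 control rats differed widely among themselves. The log2 fold change at Year 2 was -2.52 ± 0.60 (SE), and the treated rats too stood above their Year 0.5 level, by 0.62 on the log2(CPM + 1) scale.

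*Ly49s5* (chr4:164136199-164357619), named as a stimulatory receptor of the same family, had a similar pattern. Its CPM at Year 2 was 3.47, 8.01, and 3.52 in control rats and 3.03, 0.875, and 1.28 in treated rats. The highest treated rat lay just under the lowest control rat. The log2 fold change was -1.55 ± 0.50 (SE). Genes of this family are near-identical and clustered on chromosome 4, and the entry overlaps 3 others on the same strand, so that reads of one Ly49 gene may have been counted under another.

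The family did not move as one. Of 13 Ly49 entries in the tables, 9 were tested at Year 2, and 3 were lower (*Klra1*, *Ly49s5*, and *Ly49s6*) and 3 were higher (*Klra2*, *Ly49si2*, and *Ly49si3*) with an FDR under 0.05 and a log2 fold change beyond ±1, where 8.22% and 8.17% of all genes were. *Ly49s6* had a larger fold change than either member, -2.59 ± 0.46 (SE) on the log2 scale, with 9.01, 14.7, and 4.57 CPM in control rats and 2.29, 1.5, and 0.943 in treated rats at Year 2. It was left out by the rule only because d at Year 1 was -0.53. *Klra2*, by contrast, had 5.13, 5.96, and 7.95 CPM in control rats and 17.3, 15.6, and 9.69 in treated rats. These non-members were picked out after their values had been seen.

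*RT1-N3* (chr20:3167079-3170945) encodes a non-classical MHC class I molecule of the rat. It had the highest length-scaled level of all members, with a TPM of 92.8 ± 13.8 (SD, n = 3) in control rats at Year 2 and 32.9 ± 0.224 in treated rats. Its CPM in control rats was 54.8, 61.1, and 40.9 at Year 0.5, 57.7, 61.1, and 57.6 at Year 1, and 78.7, 94.8, and 73.4 at Year 2. In treated rats it was 41.3, 39.1, and 46.3, then 44.3, 44.3, and 42.1, then 35.1, 33.3, and 33.5. The groups overlapped at Year 0.5 and were apart at Years 1 and 2. The log2 fold change was -0.31 ± 0.14 at Year 0.5, -0.43 ± 0.07 at Year 1, and -1.28 ± 0.10 at Year 2 (SE).

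*RT1-N3* was also among the 3 members that the rule kept whichever single rat was left out, the others being *Epha8* and *Atcay*. Of 31 RT1 entries, 24 were tested at Year 2. With both limits, *RT1-CE1*, *RT1-N3*, and *RT1-T24-4* were lower and 7 were higher, against 8.22% and 8.17% of all genes. With the FDR alone, *RT1-CE4*, *RT1-S3*, and *RT1-T24-3* were lower too. Those 7 included the MHC class II genes *RT1-Ba*, *RT1-Bb*, *RT1-Da*, *RT1-Db1*, *RT1-DMa*, and *RT1-DMb*, which present or load peptides in macrophages and other antigen-presenting cells. *RT1-Da* had 526, 398, and 502 CPM in control rats and 1569.7, 1399, and 1323 in treated rats at Year 2. The RT1 class I genes resemble each other closely, and their counts carry the same doubt as those of the Ly49 genes.

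*Cd226* (chr18:86299463-86394765), an activating receptor of NK and T cells, lay close to the limit of the rule. Its CPM at Year 2 was 9.77, 8.07, and 11.6 in control rats and 4.22, 4.38, and 4.31 in treated rats. The treated rats were nearly equal and all below the controls. At Year 0.5 the means were 7.5 ± 1.38 and 6.82 ± 0.704 (SD, n = 3), so that the difference with time lay mainly in the treated rats, at -0.56 against 0.35 in controls on the log2(CPM + 1) scale.

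*Cd6* (chr1:226848403-226887156), a co-receptor on T cells that binds ALCAM, was lower at Year 2 in every treated rat. Its CPM was 25.6, 24.0, and 23.8 in control rats and 11.7, 10.2, and 8.95 in treated rats. At Year 0.5 the groups were already apart, with 17.2, 19.1, and 14.0 and 10.7, 12, and 12.9. From Year 0.5 to Year 2 the control level differed by 0.53 on the log2(CPM + 1) scale, which did not pass the test.

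4 members act inside lymphocytes. With the FDR alone, *Tbc1d10c* and *Acap1* were higher in control rats at Year 2 than at Year 0.5, and *Ptpn22* and *Sh2d1a* did not pass that test. The rule used the control rats of Year 2, and the share of all genes with the FDR alone is not given here. Nothing is read from these calls. *Tbc1d10c* (carabin), which restrains calcineurin and Ras in lymphocytes, had a CPM of 19.4, 23.7, and 21.6 in control rats at Year 0.5 and 35.8, 47.0, and 32.8 at Year 2. In treated rats it was 16.8, 16.0, and 18.2 and 14.5, 13.5, and 23.0. The groups were apart at all 3 time points, and the log2 fold change went from -0.34 ± 0.10 at Year 0.5 to -1.18 ± 0.21 at Year 2 (SE). *Acap1*, an Arf6 GTPase-activating protein abundant in lymphocytes, had 59.5, 75.9, and 48.5 CPM in control rats and 30.7, 25.1, and 32.4 in treated rats at Year 2, after means of 36.2 ± 7.36 and 31.5 ± 4.52 (SD, n = 3) at Year 0.5.

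*Ptpn22*, a phosphatase that dampens T cell receptor signalling, differed in that the treated level was the one further from Year 0.5, by -0.60 against 0.15 in control rats on the log2(CPM + 1) scale. Its CPM in treated rats was 11.6, 10.2, and 13.3 at Year 0.5, 9.10, 14.2, and 11.5 at Year 1, and 8.43, 8.0, and 5.79 at Year 2. In control rats it was 13.6, 15.1, and 14.4, then 14.5, 14.4, and 15, then 15.9, 17.1, and 15.3. No treated rat reached a control rat at any time point. *Sh2d1a*, which encodes the adaptor SAP of the SLAM family receptors, had 5.06, 6.47, and 2.60 CPM in control rats and 1.04, 0.813, and 4.24 in treated rats at Year 2. Here the groups overlapped, because the third treated rat lay above the third control rat, and the log2 fold change of -1.21 ± 0.59 (SE) did not pass the test.

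**Figure D3:**
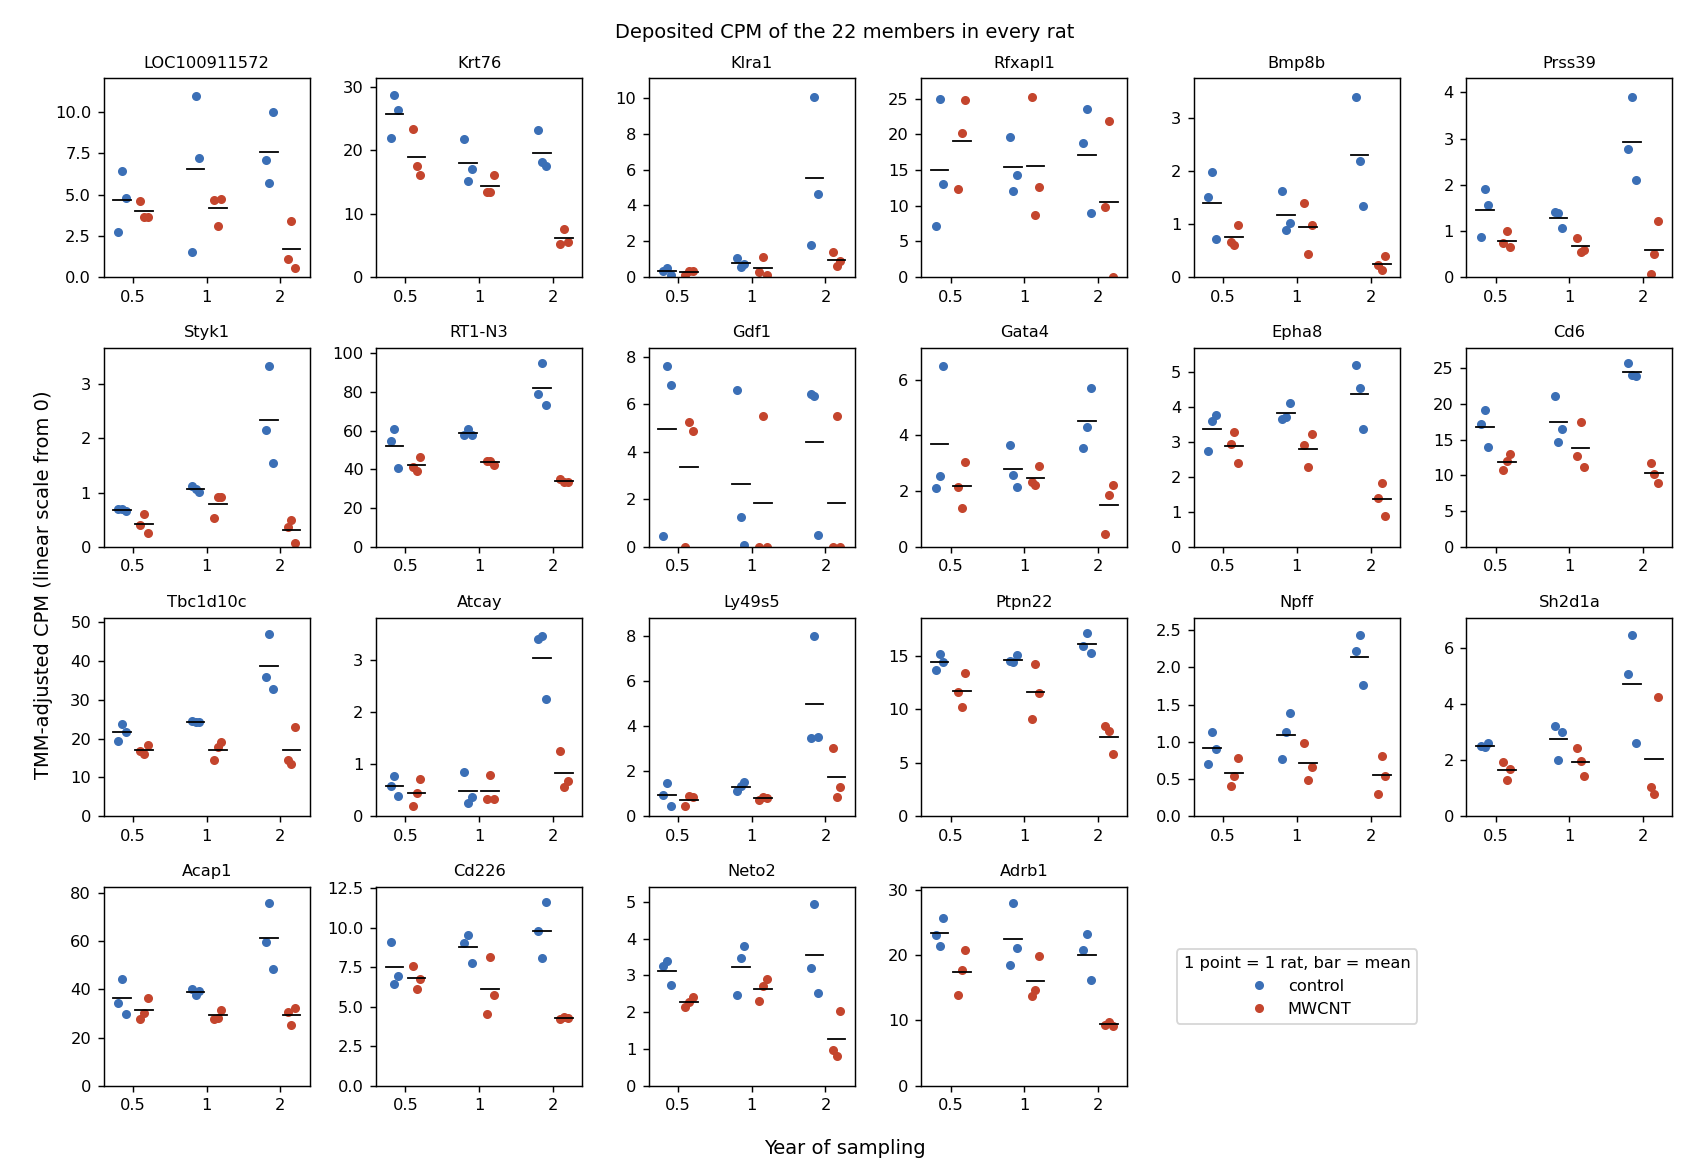
TMM-adjusted CPM (y axes, linear from 0, a scale for each gene) of the 22 members in each of the 18 rats at Years 0.5, 1, and 2 (x axes), with 1 point for each rat and bars for the means of 3 rats. The groups do not overlap at Year 2 in 19 panels. For Klra1, Atcay, and Ly49s5 the control points of Year 2 stand above the earlier years, and the treated means are higher too.

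In the lists of T cell and of cytotoxic and NK cell markers, part of the genes were lower before Year 2 as well. Of 33 T cell genes, 20 were lower at Year 0.5 with the FDR alone, 13 at Year 1, and 25 of the 32 tested at Year 2. Over all genes 18.6%, 19.6%, and 24.0% were. With the fold change limit the numbers were 3, 2, and 21, against 3.03%, 4.09%, and 8.22% of all genes, and those higher were 3, 3, and 3, against 6.07%, 6.13%, and 8.17%. The median log2 fold change of the list was -0.60, -0.61, and -1.23, where the medians over all tested genes were -0.02, 0.00, and -0.01. *Cd3e*, a chain of the T cell receptor complex, had log2 fold changes of -0.49, -0.63, and -1.39. The genes that were higher at Year 2 were *Cd4*, *Ctla4*, and *Thy1*. *Cd4* is also expressed by rat macrophages and *Thy1* by fibroblasts. *Cd6* and *Sh2d1a* are in this list.

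Of 24 cytotoxic and NK cell genes tested at each time point, 1, 1, and 13 were lower at Years 0.5, 1, and 2 with both limits, and 1, 1, and 0 were higher. Over all genes 3.03%, 4.09%, and 8.22% were lower and 6.07%, 6.13%, and 8.17% higher. With the FDR alone, 9, 12, and 13 were lower, against 18.6%, 19.6%, and 24.0% of all genes. The medians were -0.52, -0.72, and -1.17. *Prf1*, which encodes perforin, had log2 fold changes of -0.76, -0.75, and -1.46, and *Gzmb*, a granzyme of the same granules, 0.20, -0.41, and 0.03. *Cd226* and *Ly49s5* are in this list. These genes were picked out after their values had been seen.

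The B and plasma cell list differed from these, with 4, 2, and 4 genes lower and 1, 1, and 1 higher of 14, 13, and 13 tested with both limits, and medians of -0.89, -0.40, and -0.64. Over all genes 3.03%, 4.09%, and 8.22% were lower and 6.07%, 6.13%, and 8.17% higher with both limits. With the FDR alone, 8, 4, and 5 were lower, against 18.6%, 19.6%, and 24.0% of all genes, and 3, 3, and 1 higher. Its summed CPM was 323 to 335 in control rats and 345 to 405 in treated rats at Year 1, and the groups overlapped at Years 0.5 and 2.

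Lists of other cell types were lower by amounts like those of the lymphocyte lists. The median log2 fold changes of 42 endothelial genes were -0.80, -0.76, and -1.23, with 9, 1, and 38 lower with both limits. Those of 20 alveolar type 1 genes were -0.62, -0.72, and -1.21, with 2, 2, and 11 lower, and those of 37 motile cilium genes were -0.72, -0.94, and -1.10, with 1, 11, and 31 lower. Over all genes 3.03%, 4.09%, and 8.22% were lower with both limits. No gene of these 3 lists was higher with both limits at any time point, against 6.07%, 6.13%, and 8.17% of all genes. A lower level at Year 2 was therefore not particular to lymphocyte markers.

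Red cell genes, which mark the blood held in the tissue, also had medians below 0 at each time point. Their median at Year 0.5 lay further below 0 than those of the T cell list, -0.60, and of the cytotoxic and NK cell list, -0.52. Of 5 tested, 3, 3, and 5 were lower with both limits, against 3.03%, 4.09%, and 8.22% of all genes, with medians of -1.22, -1.11, and -1.90. Their summed CPM was 2574 to 3251 at Year 0.5 and 4356 to 6605 at Year 2 in control rats, and 726 to 1814 and 877 to 1877 in treated rats. The median log2 change from Year 0.5 to Year 2 in control rats was 0.73 for these genes, 0.45 for T cell genes, and 0.91 for cytotoxic and NK cell genes, and 0 of the 5 red cell genes passed both limits in that comparison. The part of blood content and of other cell types in the values of the members was not tested.

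Summed over the list without members, the CPM of 26 cytotoxic and NK cell genes was 690.0, 924, and 464 in the control rats of Year 2 and 287, 176, and 492 in the treated rats. The third treated rat overlapped the controls, and it was also the one with the high *Sh2d1a* value. For the T cell list without members the sums were 489, 492, and 439.9 and 416, 370.2, and 385. Without *Cd4*, which was left out after the values had been seen, they were 437, 439, and 383 in control rats and 210.1, 167, and 226 in treated rats, against 284, 341, and 284 and 207, 209, and 203 at Year 0.5. No gene of either list was at 0 in all rats. The part of lymphocyte content in the values of the members was not tested.

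**Figure D4:**
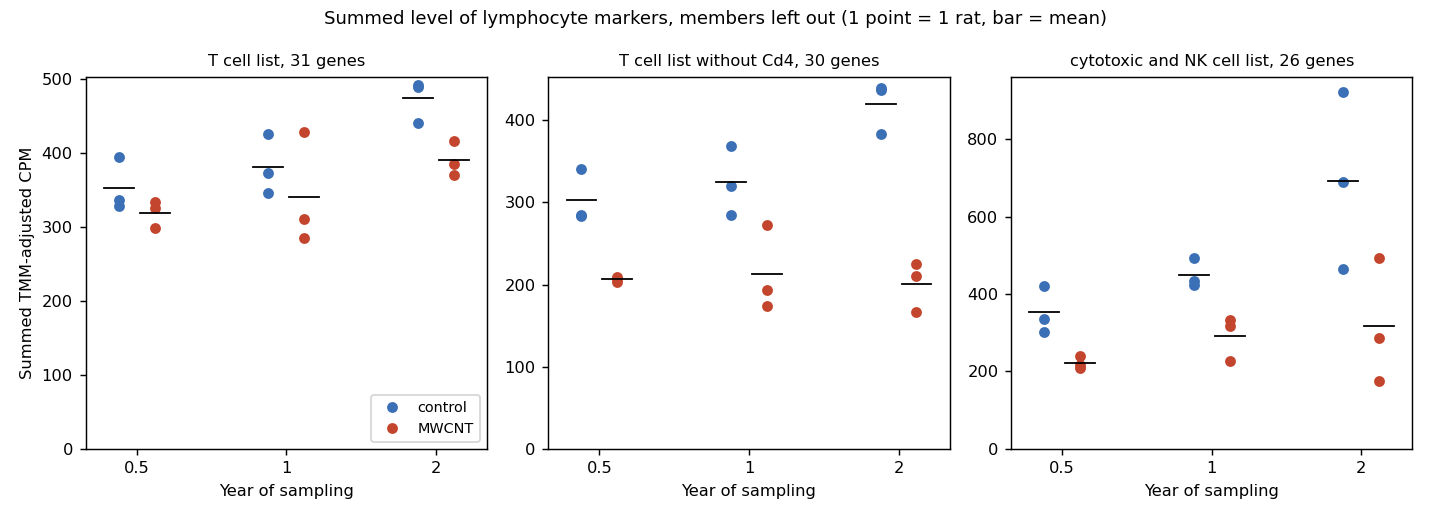
Summed TMM-adjusted CPM (y axes, from 0) of the T cell list, the same list without Cd4, and the cytotoxic and NK cell list, members left out, in each rat by time point (x axes), with bars for the means of 3 rats. Without Cd4, the treated rats stay between 167 and 273 at all time points and the control rats of Year 2 lie between 383 and 439.

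The second control rat of Year 2 had the highest control value in 14 of the 22 members, while the first and the third were highest in 5 and 3. It also had the highest sum of the cytotoxic and NK cell list. Without it, d at Year 2 was at most -1 in 14 of the 22 members, with a median of -1.09, and edgeR called 14 members lower instead of 19. In control rats, 17 members then stood above Year 0.5, where 19 had.

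Promoters were read from RefSeq (build GRCr8, which differs from the Rnor_6.0 of the deposited tables), from 250 bases before to 50 after the annotated gene start, for the 14 members that matched by symbol. *LOC100911572*, *Klra1*, *Rfxapl1*, *Styk1*, *Gata4*, *Cd6*, *Tbc1d10c*, and *Npff* were not matched. 4 short motifs were searched on both strands, CAGGAA (bound by ETS factors), TGTGGT (for RUNX factors), AGATAA (for GATA factors), and GTTGCC (part of an RFX site), and no motif contains another, though their matches can overlap. TGTGGT was present in 5 of the 14 promoters, those of *Acap1*, *Atcay*, *Cd226*, *Ptpn22*, and *Sh2d1a*, and in 16.9% of the 27457 promoters of the table. CAGGAA was present in 3 of 14, those of *Adrb1*, *Cd226*, and *Sh2d1a*, and in 29.0% of all. The letters AGATAA occurred in 1 of 14, that of *Krt76*, and in 11.3% of all, and the letters GTTGCC also in that of *Krt76* alone and in 12.2% of all. A match is a description of letters and not a binding site.

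The promoters of the 4 lymphocyte members with TGTGGT are printed to show where the letters lie, followed by those of *RT1-N3* and *Krt76*, the members that passed the interaction test. Capitals mark any of the 4 motifs or their reverse complements, and in *Sh2d1a* a match to CAGGAA and one to TGTGGT share 1 base and appear as a single run. The positions are chr2:194054994-194055293 (forward strand) for *Ptpn22*, chr10:55118136-55118435 (reverse strand) for *Acap1*, chrX:126238950-126239249 (forward strand) for *Sh2d1a*, chr18:84725066-84725365 (forward strand) for *Cd226*, chr20:2666239-2666538 (forward strand) for *RT1-N3*, and chr7:134904113-134904412 (reverse strand) for *Krt76*, and each is written 5′ to 3′ on the strand of its gene.
Ptpn22: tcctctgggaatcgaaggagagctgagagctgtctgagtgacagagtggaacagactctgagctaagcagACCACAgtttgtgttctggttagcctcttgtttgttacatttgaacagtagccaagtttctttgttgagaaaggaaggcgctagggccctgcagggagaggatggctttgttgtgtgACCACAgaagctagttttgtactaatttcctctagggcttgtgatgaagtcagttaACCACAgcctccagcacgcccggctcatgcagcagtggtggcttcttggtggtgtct
Acap1: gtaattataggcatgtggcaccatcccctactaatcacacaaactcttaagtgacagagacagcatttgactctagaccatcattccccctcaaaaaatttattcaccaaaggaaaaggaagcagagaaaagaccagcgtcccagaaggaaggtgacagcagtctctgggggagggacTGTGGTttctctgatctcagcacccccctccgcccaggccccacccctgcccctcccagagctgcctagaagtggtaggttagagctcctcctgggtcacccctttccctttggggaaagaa
Sh2d1a: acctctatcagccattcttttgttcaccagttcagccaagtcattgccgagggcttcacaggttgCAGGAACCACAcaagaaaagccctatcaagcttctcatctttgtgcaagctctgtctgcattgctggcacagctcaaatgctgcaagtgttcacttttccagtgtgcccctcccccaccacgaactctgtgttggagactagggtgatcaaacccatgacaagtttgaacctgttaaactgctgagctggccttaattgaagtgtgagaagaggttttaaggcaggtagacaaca
Cd226: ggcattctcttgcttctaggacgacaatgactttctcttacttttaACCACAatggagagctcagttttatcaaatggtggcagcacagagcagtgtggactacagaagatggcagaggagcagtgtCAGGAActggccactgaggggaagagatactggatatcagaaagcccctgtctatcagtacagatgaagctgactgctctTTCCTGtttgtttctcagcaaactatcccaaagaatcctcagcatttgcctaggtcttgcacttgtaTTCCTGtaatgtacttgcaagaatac
RT1-N3: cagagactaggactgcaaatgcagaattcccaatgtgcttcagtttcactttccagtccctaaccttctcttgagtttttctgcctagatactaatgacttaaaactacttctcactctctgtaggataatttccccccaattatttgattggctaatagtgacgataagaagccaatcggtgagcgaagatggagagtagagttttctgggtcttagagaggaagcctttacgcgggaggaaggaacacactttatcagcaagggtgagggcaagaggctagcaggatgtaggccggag
Krt76: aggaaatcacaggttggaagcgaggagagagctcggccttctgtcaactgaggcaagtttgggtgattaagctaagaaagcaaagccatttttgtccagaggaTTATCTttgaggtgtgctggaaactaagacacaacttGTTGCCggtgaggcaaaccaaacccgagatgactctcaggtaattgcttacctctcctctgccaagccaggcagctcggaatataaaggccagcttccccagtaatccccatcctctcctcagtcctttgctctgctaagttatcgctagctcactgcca
The printed *RT1-N3* promoter holds none of the 4 motifs.

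Among the ligands, *Bmp8b* (chr5:140803638-140820628) encodes a bone morphogenetic protein of the TGF-beta family. Its CPM was 3.40, 2.18, and 1.34 in control rats and 0.222, 0.125, and 0.404 in treated rats at Year 2, the lowest control rat standing above the highest treated rat. Its log2 fold change of -3.17 ± 0.54 (SE) was the lowest of all members in the edgeR fit. At Year 0.5 it was -0.91 ± 0.43, although d, with its pseudocount of 1, was -0.43. Neither *Bmp8b* nor *Gdf1* is in the list of 33 BMP and TGF-beta signalling genes, of which 11 were lower and 4 higher at Year 2, against 8.22% and 8.17% of all genes. At Year 0.5 they were 2 and 2 of 33, against 3.03% and 6.07%, and at Year 1 they were 4 and 2 of 32, against 4.09% and 6.13%.

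*Epha8*, an ephrin receptor known from axon guidance, had 5.20, 4.55, and 3.38 CPM in control rats and 1.41, 1.81, and 0.875 in treated rats at Year 2. At Year 0.5 the treated rats had 2.94, 3.27, and 2.41, overlapping the controls. At Year 1 the treated rats, with 2.90, 2.27, and 3.23, all lay below the controls, with 3.65, 3.71, and 4.12. Its lower level at Year 2 was seen against both the controls and the earlier treated rats, with a difference of -0.73 from Year 0.5 on the log2(CPM + 1) scale. *Adrb1*, the beta-1 adrenergic receptor, had 20.7, 23.2, and 16.1 CPM in control rats and 9.25, 9.69, and 9.22 in treated rats at Year 2. It was lower in every treated rat at Year 0.5 too, at 13.9, 17.7, and 20.8 against 23.1, 21.3, and 25.6. It was the last member inside the limit. *Styk1*, a receptor-like kinase whose gene lies on chromosome 4 as do those of *Klra1* and *Ly49s5* (chr4:165529294-165541314), had 2.15, 3.33, and 1.55 CPM in control rats and 0.370, 0.500, and 0.0673 in treated rats at Year 2. For *Styk1* the groups were apart at all 3 time points. Its control level had been 0.684 ± 0.0296 (SD, n = 3) at Year 0.5, and from then to Year 2 the control level differed by 0.95 and the treated level by -0.12 on the log2(CPM + 1) scale.

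The 3 members best known from neurons were low in lung, and of these *Atcay* was higher in control rats at Year 2 than at Year 0.5, while *Npff* and *Neto2* did not pass that test. *Npff* encodes the precursor of neuropeptide FF. Its CPM at Year 2 was 2.22, 2.43, and 1.76 in control rats and 0.296, 0.813, and 0.539 in treated rats. *Atcay*, which encodes the brain protein caytaxin, had 3.40, 3.46, and 2.25 CPM in control rats and 1.26, 0.563, and 0.673 in treated rats. Its control mean had been 0.582 ± 0.192 at Year 0.5 and 0.489 ± 0.312 at Year 1 (SD, n = 3), too low to be tested in those years, and its TPM at Year 2, 1.64 ± 0.350, was the lowest of the members. *Neto2*, an auxiliary subunit of kainate receptors, had 3.19, 4.93, and 2.53 CPM in control rats and 0.962, 0.813, and 2.02 in treated rats at Year 2. For *Neto2* the treated level differed from Year 0.5 by -0.57 and the control level by 0.11 on the log2(CPM + 1) scale.

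*Krt76* (chr7:143488684-143497108), a type II keratin of stratified epithelia, was the clearest case of a lower treated level. Its CPM in treated rats was 23.3, 17.6, and 16.1 at Year 0.5, 13.5, 13.4, and 16.0 at Year 1, and 5.18, 7.63, and 5.59 at Year 2. In control rats it was 22, 28.6, and 26.3, then 21.8, 15.2, and 17.1, then 23.2, 18.1, and 17.5. The groups overlapped at both earlier years and were far apart at Year 2. The interaction estimate was -1.22 ± 0.25 against Year 0.5 and -1.32 ± 0.26 against Year 1 (SE), on the log2 scale. For *RT1-N3* the 2 estimates were -0.96 ± 0.17 and -0.84 ± 0.17.

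*Gata4*, a transcription factor of heart and endoderm, had 3.54, 4.29, and 5.70 CPM in control rats and 0.444, 1.88, and 2.22 in treated rats at Year 2, after 2.09, 2.53, and 6.5 and 2.14, 1.39, and 3.06 at Year 0.5, where 1 control rat stood above the others. Of the heart muscle genes, 9 of 13 were lower at Year 0.5, 2 of 13 at Year 1, and 3 of 12 at Year 2, where 3.03%, 4.09%, and 8.22% of all genes were, and 0 were higher at any time point. The sum of the heart muscle list, which holds no member, ranged from 209.8 to 1023 CPM in control rats and from 148 to 230.0 in treated rats at Year 2. Its part in the *Gata4* value was not tested. *Prss39*, a serine protease known from testis, had 2.77, 3.91, and 2.11 CPM in control rats and 0.0740, 0.500, and 1.21 in treated rats at Year 2, and the groups did not overlap.

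*LOC100911572* (chr9:90857308-90874704) had the lowest d of all members and is given without a further name. Its CPM was 7.07, 5.70, and 9.99 in control rats and 1.11, 3.38, and 0.539 in treated rats at Year 2. At Year 1 the 3 control rats ranged more widely, with 1.54, 10.9, and 7.21, so that its small d before Year 2 rests on scattered values. It is the only member with a LOC name.

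For 2 members d at Year 2 no longer came near -1 once reads of a second entry were added. *Gdf1*, a TGF-beta family ligand, overlaps *Cers1*, a ceramide synthase, on the same strand (chr16:20845576-20860767). At Year 2 the counts of *Gdf1* were 93, 99, and 7 in control rats and 0, 88, and 0 in treated rats, and those of *Cers1* were 0, 0, and 101 and 81, 0, and 97. Where 1 entry was high the other was at or near 0, and the sum was steady, at 93, 99, and 108 and 81, 88, and 97. The d of the sum at Year 2 was -0.15, against -1.22 for *Gdf1* alone. At Year 0.5 the d of the sum was -0.33, and at Year 1 it was -0.53, beyond the limit of the rule. *Rfxapl1* carries the symbol of a copy of *Rfxap*, a subunit of the RFX complex that drives MHC class II genes, and both lie on chromosome 2. *Rfxapl1* had 272, 369, and 128 counts in control rats and 133, 351, and 0 in treated rats at Year 2, and *Rfxap* had 184, 108, and 309 and 199, 101, and 392. The sums were 456, 477, and 437 and 332, 452, and 392, with a d of -0.22 at Year 2, against -1.43 for *Rfxapl1* alone. At Years 0.5 and 1 the d of this sum was -0.11 and 0.03. Both members are therefore uncertain. How the counting divided such reads is not given in the sources used here.

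**Figure D5:**
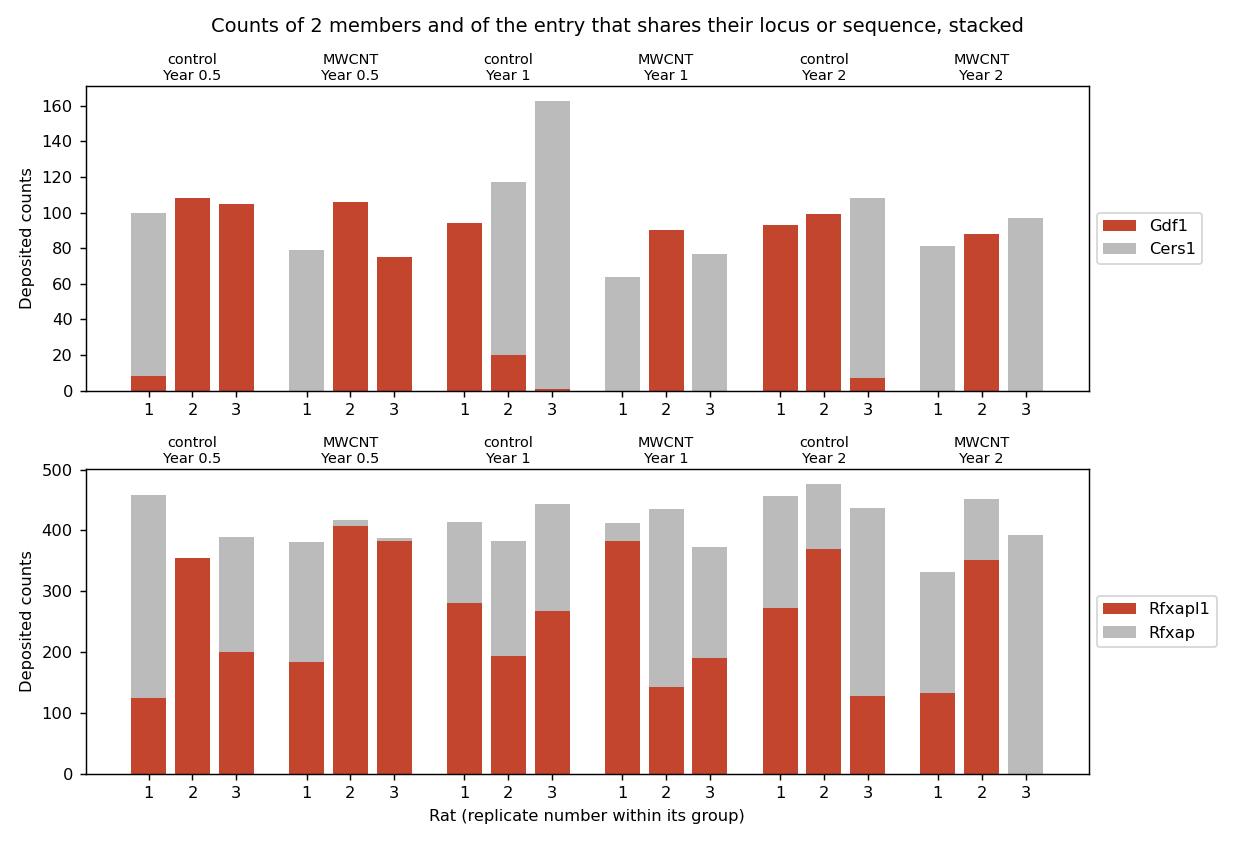
Deposited counts (y axes, from 0) of Gdf1 with Cers1 stacked on it and of Rfxapl1 with Rfxap stacked on it in each of the 18 rats (x axes, replicate number within its group). The split between the entries changes from rat to rat, while the Year 2 sums lie between 81 and 108 for the first pair and between 332 and 477 for the second.

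The limits of the rule cut through a continuum. Just inside the limit at Year 2 were *Cd226* (-1.02), *Neto2* (-1.01), and *Adrb1* (-1.002). Just outside were AABR07053509.2, *Ak8*, and *Npw*, each with a d of -0.99. Of the 858 genes with a d of at most -1 at Year 2 that met the CPM minimum, 836 were left out by the earlier years, 714 of them because d was below -0.5 at both Year 0.5 and Year 1 and 117 because it was below -0.5 at 1 of these time points. The members lie on 13 chromosomes, with 3 each on chromosomes 1, 4, and 7.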

How the data were processed

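Lung RNA-seq libraries of 18 rats were used, 3 rats for each treatment and time point, grouped by the sample labels, with 13297643 to 21130757 counts per rat. The authors mapped the reads with CLC Genomics Workbench and deposited whole-number counts per gene without normalization. The submitters' processing notes name Rnor_6.0 (rn6), and how reads that fit several entries were counted is not given in the sources used here. The deposited TPM values are scaled for length. The deposited CPM values were adjusted by the authors with TMM factors, which makes them a scaled signal: they added up to between 935172 and 966829 for a control rat and to more than that for every MWCNT-treated rat. The deposited RPKM values and the authors' comparison columns (fold changes and p-values) were not used.

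Members were found from the deposited CPM by the rule in the text. Their choice, the gene lists, and the tests were made with earlier results of these data known. Counts were analysed with edgeR 4.0.16 (R 4.3.3), with filterByExpr (minimum count of 10, minimum total count of 15), TMM factors, and the quasi-likelihood test. Each time point was fitted on its 6 rats, and interactions and changes with time were tested in one model of all 18 rats. P-values were adjusted by Benjamini-Hochberg over all genes tested. An FDR under 0.05 and a log2 fold change beyond ±1 were required, and the FDR alone for interactions. The code was tested on simulated data. Standard errors were derived from the F statistic. The genes named are the members found in a gene list, the 10 with the lowest d, the 10 with the highest control CPM at Year 2, and the 3 on either side of the limit. The other members and all other genes were named after their values had been seen. Promoters came from RefSeq (GRCr8), the first entry for each symbol. Alternatives were other pseudocounts, scalings, and filters, DESeq2 1.42.0, limma 3.58.1 on log2(TPM + 1), a replicate block, and each rat left out. Every rat was a separate animal, so replicate numbers pair no rats. Figures and tables were made in Python 3.11.15.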

Additional observations from a re-analysis of the deposited data

Results flagged for a closer look

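*Krt76* and *RT1-N3* differed between time points in the test of the difference itself, the interaction of treatment and time in one edgeR model of all 18 rats, at an FDR below 0.05. For *Krt76* the interaction estimate was -1.22 on the log2 scale for Year 2 against Year 0.5 and -1.32 for Year 2 against Year 1. For *RT1-N3* it was -0.96 and -0.84. The call for *RT1-N3* against Year 0.5 held whichever single rat was left out, and the other calls depended on single rats. With each of the 18 rats left out in turn, *Krt76* lost the call in 6 fits against Year 0.5, with an FDR of up to 0.0833, and in 8 against Year 1, with an FDR of up to 0.115. *RT1-N3* lost it in 0 and in 11 fits, with an FDR of up to 0.117. Both were chosen as members for such a difference, so the tests are a description. In *Krt76* the change lay in treated rats, whose mean log2(CPM + 1) differed from Year 0.5 by -1.49 while that of the control rats differed by -0.38. In *RT1-N3* it lay more in control rats, by 0.66, than in treated rats, by -0.30. Groups of 3 rats were not tested for single outlying rats.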

How the results depend on the processing

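The number of members was 22. It was 11 with a minimum CPM of 5 and 9 with limits of ±0.4 at Years 0.5 and 1, which are stricter by construction. It was 19 to 40 when single rats were left out, with 13 to 21 of the 22 kept, the fewest without the second control rat of Year 2. It was 37 without the second treated rat of Year 1 and 40 without the third control rat of Year 2. The pseudocount of 0.1 gave 28 genes, 11 of them members, library size alone 32 with 12, and TPM 31 with 7, and these scalings thus change which genes are named. Members lower at Year 2 numbered 18 to 20 in the other fits and 14 to 19 with 1 rat left out. Members with an interaction, 2 for either pair of years, numbered 7 against Year 0.5 and 4 against Year 1 with DESeq2, and 1 and 1 with the fold change limit, an alternative chosen after seeing the data. With each rat left out they ranged from 1 to 5 against Year 0.5 and from 0 to 4 against Year 1. Members changed with time numbered 4 in control rats and 2 in treated rats, 7 and 5 with the FDR alone, and 2 to 5 and 1 to 3 with each rat left out. Those changed from Year 0.5 to Year 1 numbered 0 in every fit. For DESeq2 the share of all genes called was not computed. For changes from Year 0.5 to Year 2 with the FDR alone that share is not given here, and nothing is read from those counts. The cause of these differences between fits was not tested. The median difference between Years 0.5 and 2 was 0.49 to 0.68 in control rats and -0.42 to -0.26 in treated rats with each rat left out, and -0.66 in treated rats with the pseudocount of 0.1.

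With the replicate number as a block, 18 members were lower at Year 2 and 2 had an interaction with either year. The mean correlation across genes of the rats' distances from their group means was 0.014 in the 9 same-numbered pairs and -0.006 in 18 pairs with unequal numbers, so the numbers were not treated as pairing. Low counts limit precision: 11 members had fewer than 5 CPM in control rats at Year 2.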
